A study of Mus musculus with 6 samples.

Results

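A set of 9 genes used to mark stem and progenitor cells of the blood were followed by name: Procr, Cd34, Slamf1, Fgd5, Cd48, Cd27, Eng, Il7r and Cd9. They are 9 of the 55487 genes in the table, and all 9 passed the filter on low values, a mean regularized log (rlog) value of at least 3 over the libraries, which left 18766 genes to test. Rlog values are on the log2 scale, are normalized for library size and are pulled toward the mean of each gene, most strongly where counts are low. The 6 RNA-seq libraries came from mouse bone marrow cells selected for Kit, the stem cell factor receptor. In WT (n = 3) the cells had been transduced with a lentivirus overexpressing wild type MLLT3, and in DM (n = 3) with one overexpressing MLLT3 that carries the substitutions K63E and K67E. Both groups were then sorted and grew in methylcellulose over 8 days, supplied with Flt3L (10 ng/mL), with other cytokines that included EPO, SCF, GM-CSF, IL-3, IL-6 and IL-11 (20 ng/mL each), and with 4-hydroxytamoxifen (200 nM), given so that the endogenous Mllt3 gene was deleted. The labels name no driver of the deletion, no strain and no age. They also do not say whether the replicates came from separate animals or cultures, so p-values here measure the spread between these libraries, which may be technical.

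Blood stem cells are usually isolated by combinations of surface proteins. Procr (the endothelial protein C receptor), Slamf1 (CD150) and Cd27 enrich for stem and early progenitor cells, and Cd34 marks progenitors. Cd48 is carried by more committed progenitors and is absent from most long-term stem cells. Il7r encodes the alpha chain of the interleukin-7 receptor and marks lymphoid progenitors, Eng encodes a co-receptor of the TGF-beta family, and Cd9 encodes a tetraspanin. Fgd5 is the exception to the name of the group: it encodes an intracellular exchange factor for the GTPase CDC42, and it marks stem cells through reporter alleles and not as a surface protein. Several of these genes are also used outside the stem cell compartment, Cd9, Cd34 and Cd48 by mast cells, Cd9 by megakaryocytes and Eng and Procr by endothelium.

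The cells in the libraries were read first against their labels. Kit had rlog values from 14.29 to 14.58 in WT and from 14.30 to 14.90 in DM, and Ptprc, the pan-leukocyte marker CD45, had means of 13.72 ± 0.105 (SD, n = 3) in WT against 13.94 ± 0.0974 in DM. Transcripts of mature myeloid and mast cells were abundant beside them: Cpa3, a mast cell protease, lay between 17.60 and 18.26, and Lyz2, the lysozyme of monocytes and neutrophils, between 17.60 and 19.00. Mllt3, the gene targeted and supplied, lay between 12.44 and 12.87 in WT and between 11.99 and 12.44 in DM, with a limma change of -0.48 and an adjusted p of 0.0448. Without single libraries this change ran from -0.62 to -0.36, and the call was lost in 7 of 13 alternatives: without WT replicate 1 or 2, DM replicate 2 or 3, the filter on low values or the trend, and with robust eBayes. The values do not tell vector from endogenous transcripts. Depth is unknown because the table holds no counts, and the labels put all 6 libraries in batch 1.

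The comparison of DM with WT sets cells given substituted MLLT3 against cells given wild type MLLT3, with the endogenous gene targeted in both. Mllt3 RNA was also lower in DM (-0.48), so the substitutions and the level of Mllt3 cannot be told apart here. Of the 9 genes, 4 were called at a limma adjusted p under 0.05, and all 4 were higher in DM: Il7r, Procr, Cd9 and Eng. The other 5, Cd48, Slamf1, Cd34, Cd27 and Fgd5, did not pass the test. Over all 18766 genes 13.9% were called, 9.2% higher and 4.71% lower, so that 66.1% of the called genes were higher. After quantile normalization that share was 51.3%, with the same 4 marker genes still called. The share of genes called grew with their level. It was 1.62% of the 5318 genes with a mean from 3 to 5, where Fgd5 and Cd27 lie, and 10.2% from 5 to 8, where Slamf1 lies. It was 20.1% from 8 to 11, where Procr, Eng and Cd48 lie, and 26% of the 3138 genes from 11 to 14, where Il7r and Cd34 lie. Of the 202 genes with a mean from 14 up, where Cd9 lies, 32.7% were called. The median change of the 9 genes was 0.17, against 0.01 over all genes tested. The median of all tested genes also rose with level, from -0.06 at a mean from 3 to 5 to 0.08 from 8 to 11. It was 0.12 from 11 to 14 and 0.15 from 14 up. Counts and medians of the gene lists below are to be read beside these values, and no list was tested as a set. The values of WT and DM did not overlap for 5 of the 9, as they did not for 35.8% of all genes. Markers of monocytes and macrophages were also higher in DM, with 11 of 15 tested genes called and summed levels of 18.27 to 18.96 in WT against 19.28 to 19.65 in DM, and their part in the 4 rises was not tested. Since whole cultures were sequenced, more cells of a type and more RNA per cell cannot be told apart.

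**Figure D1:**
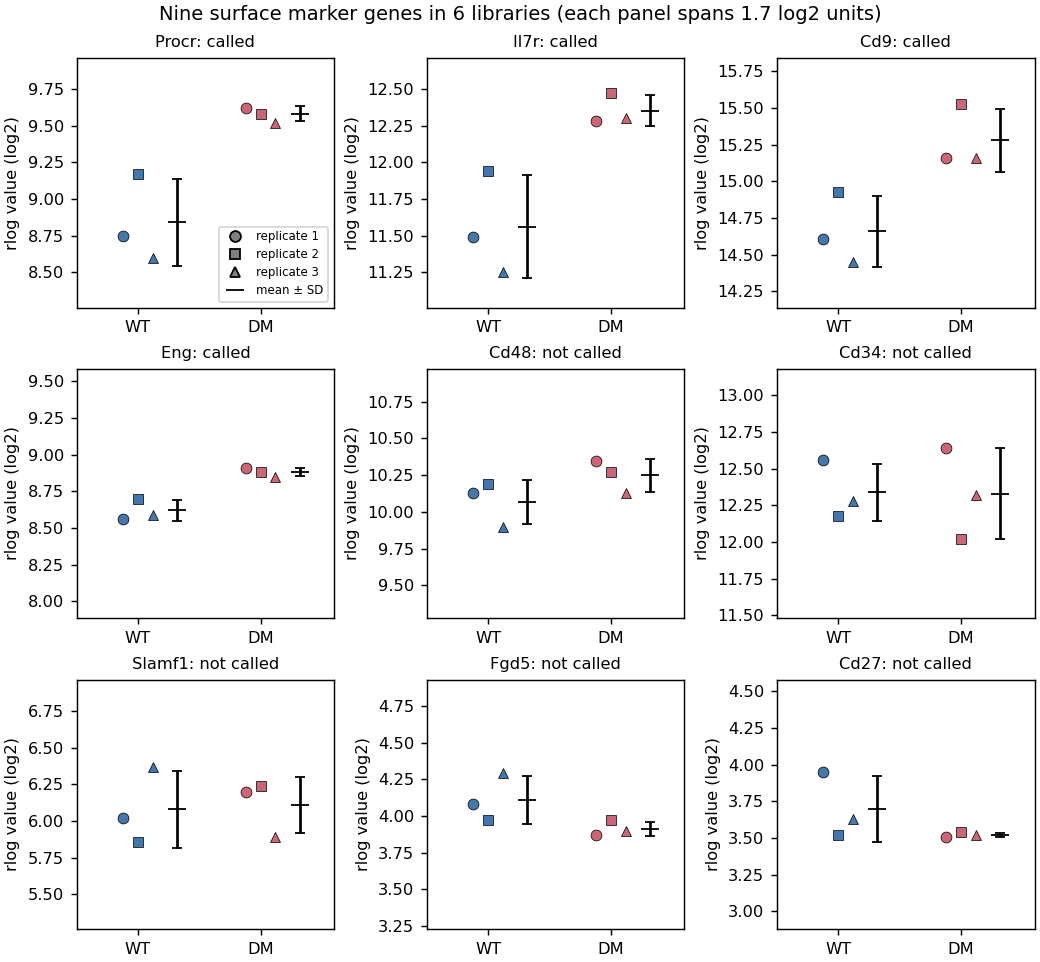
Rlog values (log2) of the 9 genes in each library, with WT in blue, DM in red, a marker shape for each replicate number, and the mean and SD of the group beside the points. Procr, Il7r, Cd9 and Eng sit higher in every DM library than in any WT library, while for Cd48, Cd34, Slamf1 and Cd27 the groups overlap.

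Procr (ENSMUSG00000027611.12; chromosome 2, 155751117 to 155755471, plus strand) encodes the receptor that holds protein C on the cell surface, and high Procr is a property of long-term stem cells. All coordinates of genes are from GENCODE M21 on GRCm38, the assembly that mm10 denotes. Its rlog values, given for replicates 1, 2 and 3 in turn, were 8.75, 9.17 and 8.60 in WT against 9.62, 9.58 and 9.52 in DM. The DM libraries lay close together and above all WT libraries, with 0.349 between the groups. The means were 8.84 ± 0.298 (SD, n = 3) and 9.58 ± 0.0512, which differ by 0.73 (SE 0.127, 95% interval 0.45 to 1.02, limma adjusted p 0.00705), or 1.66-fold. A larger change in size was seen for 1.45% of all genes tested. The call held in all 13 alternatives, and without each library in turn the change ran from 0.61 to 0.90.

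The partners of this receptor moved less. Of 11 genes of the protein C pathway, 8 were tested and 2 were called, both higher in DM, with a median of 0.11. These were Pros1, which encodes protein S, the cofactor of activated protein C (0.45, limma adjusted p 0.0108), and Thbd, which encodes thrombomodulin (0.38, adjusted p 0.0457). Thbd lost its call in 8 of 13 alternatives, among them the omission of each library other than DM replicate 1, with changes from 0.26 to 0.50 over the libraries left out. F2r, the thrombin receptor PAR1 through which activated protein C signals, changed by 0.04 (adjusted p 0.88). Proc, the gene of protein C itself, had a mean under 3 and was not tested.

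Il7r (ENSMUSG00000003882.5; chromosome 15, 9505788 to 9530176, minus strand) had the largest change of the 9 genes. Its rlog values were 11.49, 11.94 and 11.25 in WT against 12.28, 12.47 and 12.30 in DM. No DM library fell to the level of WT replicate 2, the highest of its group. The mean rose from 11.56 ± 0.351 (SD, n = 3) to 12.35 ± 0.105, a change of 0.79 (SE 0.148, 95% interval 0.45 to 1.12, limma adjusted p 0.0094), or 1.72-fold, and 1.12% of tested genes changed more. The call held in all 13 alternatives, with changes between 0.63 and 0.97 when single libraries were left out.

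The receptor encoded by Il7r pairs with the common gamma chain, the product of Il2rg, to bind interleukin-7, and with the product of Crlf2 to bind TSLP. Both partner genes rose with it: Il2rg by 0.48 (limma adjusted p 0.00423), in all 13 alternatives, and Crlf2 by 0.26 (adjusted p 0.0315). Most genes of this pathway had means from 8 to 14. Among all tested genes, 20.1% were called from 8 to 11 and 26% from 11 to 14, with median changes of 0.08 and 0.12. Of the 12 tested genes of this pathway 4 were called, 3 higher and 1 lower, and the median was 0.10, near those values. The third that rose was Bcl2, a survival gene downstream of the receptor (0.35, adjusted p 0.0309), and the one that fell was Jak3, the kinase bound to the common gamma chain (-0.28, adjusted p 0.032). Crlf2, Bcl2 and Jak3 each lost their calls in 6 of 13 alternatives, mostly on leaving out a library, where their changes ran from 0.22 to 0.30, from 0.26 to 0.43 and from -0.32 to -0.23. Crlf2 and Bcl2 also lost them after quantile normalization, and 1 gene of the list was called without WT replicate 1, DM replicate 1 or DM replicate 2 and 2 without DM replicate 3. The gene of the ligand, Il7, was near the lower limit of the tested range, with means of 4.07 in WT and 3.91 in DM.

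Because Il7r is a lymphoid marker, the lymphoid genes were counted beside it. Of 18 lymphoid markers, 9 had a mean under 3 and were not tested, Cd3e, Ms4a1 and Rag2 among them. Of the 9 tested, 3 were called and all 3 were lower in DM, but 1 was called without DM replicate 1. None of the 18 was listed at 0. The summed level of the list reached 9.35 in WT and 8.15 in DM. In WT it came mostly from Nkg7, a granule gene of cytotoxic lymphocytes (-1.89, limma adjusted p 0.000155), while Cd3d, Pax5 and Cd4 had WT means of 3.84, 4.18 and 3.38. The part of lymphoid cells in the level of Il7r was not tested.

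Cd9 (ENSMUSG00000030342.8; chromosome 6, 125460266 to 125494791, minus strand) was the most highly expressed of the 9, above 99.6% of tested genes. Its rlog values were 14.61, 14.93 and 14.45 in WT against 15.16, 15.53 and 15.16 in DM. The groups were 0.233 apart. The mean went from 14.66 ± 0.241 (SD, n = 3) to 15.28 ± 0.215, a change of 0.62 (SE 0.142, 95% interval 0.31 to 0.94, limma adjusted p 0.0187), or 1.54-fold. The call was lost without WT replicates 1 or 3 (0.60 and 0.52, adjusted p 0.0692 and 0.0523) and without DM replicate 2 (0.50, adjusted p 0.0698). After quantile normalization the change was 0.41 (adjusted p 0.0331).

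Tetraspanins organize other membrane proteins into clusters, and Cd9 was accompanied by several of them. Of 20 tetraspanins and partners of CD9, 11 were called, 10 higher and 1 lower, with a median of 0.33. The largest rise was in Ptgfrn, an immunoglobulin-family protein that binds CD9 directly (0.87, limma adjusted p 0.0157), with values of 8.72, 9.19 and 8.39 in WT against 9.59, 9.94 and 9.38 in DM. It lost its call without WT replicate 1 (0.85, adjusted p 0.0508) and without DM replicate 2 (0.72, adjusted p 0.0563). The protease Adam17 (0.54, adjusted p 0.00636) and the tetraspanin Cd151 (0.53, adjusted p 0.00553) rose in all 13 alternatives. Cd63, a tetraspanin of lysosomes and granules, rose by 0.43 (adjusted p 0.0222) and lost the call in 5 of 13, with 0.27 (adjusted p 0.082) after quantile normalization and 0.36 to 0.53 over the libraries left out. Cd81, a relative of Cd9, changed by 0.27 (adjusted p 0.103). The called gene that fell was the tetraspanin Tspan2 (-0.42, adjusted p 0.0462), which lost the call in 8 of 13 alternatives. The number called in this list depended on single libraries, from 2 without WT replicate 1 or DM replicate 2, over 4, 6 and 7 without DM replicate 1, DM replicate 3 and WT replicate 3, to 13 without WT replicate 2.

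Eng (ENSMUSG00000026814.16; chromosome 2, 32646595 to 32682669, plus strand) showed the smallest of the 4 rises. Its rlog values were 8.56, 8.70 and 8.59 in WT against 8.91, 8.88 and 8.85 in DM, narrow in both groups and 0.154 apart. The means were 8.62 ± 0.0716 (SD, n = 3) and 8.88 ± 0.0285, a change of 0.26 (SE 0.0675, 95% interval 0.11 to 0.41, limma adjusted p 0.03), or 1.2-fold. The change stayed between 0.23 and 0.30 without each library, but the call was lost in 5 of those 6 fits: without WT replicates 1 or 3 (0.23 and 0.25, adjusted p 0.127 and 0.0644) and without DM replicates 1, 2 or 3 (0.25, 0.26 and 0.28, adjusted p 0.0947, 0.0955 and 0.0721). It was also lost without the filter on low values (0.26, adjusted p 0.0808).

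Endoglin presents ligands of the TGF-beta family to type I and type II receptor kinases. Of 21 tested genes of that pathway 9 were called, 8 higher and 1 lower, with a median of 0.19, and 5 were called without DM replicate 2. The receptor genes Tgfbr2 (0.60, limma adjusted p 0.00626) and Bmpr2 (0.46, adjusted p 0.0102) rose in all 13 alternatives. Id3, a target of BMP signalling, rose by 0.57 (adjusted p 0.0167) but not without DM replicate 2 (0.50, adjusted p 0.0645). Smad3, a signal transducer of TGF-beta, was the gene of the list that fell (-0.56, adjusted p 0.00259), with values of 7.37, 7.30 and 7.49 in WT against 6.78, 6.80 and 6.88 in DM, and it kept the call in all 13. Acvrl1, the type I receptor that endoglin is known to work with, rose by 0.42 (adjusted p 0.0101); it lies outside the rule for named genes and was named after its values were seen. The ligand genes Gdf2 and Bmp10 had means under 3.

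**Figure D2:**
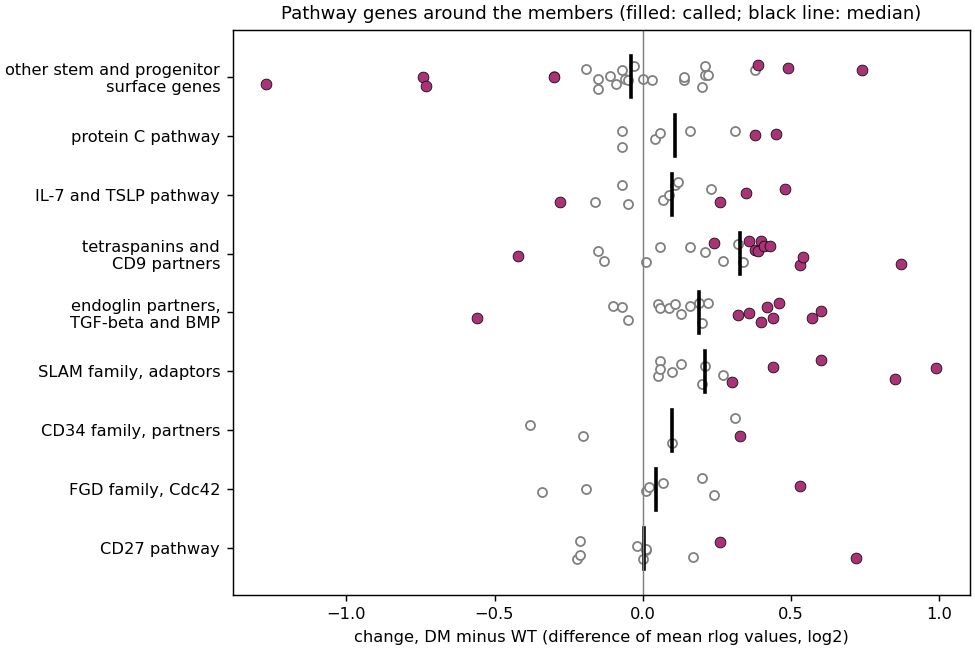
Change of each tested gene (DM minus WT, difference of mean rlog values, log2) in the 9 pathway lists, with called genes filled and the median of the list as a black line. The tetraspanin list has the highest median, 0.33, with 10 called rises, and the surface gene list has a median of -0.04 with called genes on both sides.

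The promoters of the 4 called genes are printed because these genes moved in the same direction, so that a reader may compare what lies at their starts. They are RefSeq promoters on GRCm38.p6, from 250 bases before to 50 bases after the start that RefSeq gives, 5′ to 3′ on the strand of the gene, and all 9 genes had 1 in the table. Capitals mark the E-box, CANNTG, searched on both strands.
Procr: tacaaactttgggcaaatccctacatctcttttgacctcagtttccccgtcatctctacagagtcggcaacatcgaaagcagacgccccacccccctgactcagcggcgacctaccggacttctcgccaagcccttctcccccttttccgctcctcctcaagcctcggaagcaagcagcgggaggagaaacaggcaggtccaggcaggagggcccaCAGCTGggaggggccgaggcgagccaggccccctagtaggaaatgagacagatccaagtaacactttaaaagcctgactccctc
Il7r: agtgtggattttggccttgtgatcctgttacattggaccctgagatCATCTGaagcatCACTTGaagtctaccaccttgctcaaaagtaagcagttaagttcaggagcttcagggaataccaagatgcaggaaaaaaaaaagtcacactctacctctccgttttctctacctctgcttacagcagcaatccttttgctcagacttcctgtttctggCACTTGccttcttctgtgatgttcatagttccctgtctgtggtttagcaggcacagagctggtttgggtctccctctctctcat
Cd9: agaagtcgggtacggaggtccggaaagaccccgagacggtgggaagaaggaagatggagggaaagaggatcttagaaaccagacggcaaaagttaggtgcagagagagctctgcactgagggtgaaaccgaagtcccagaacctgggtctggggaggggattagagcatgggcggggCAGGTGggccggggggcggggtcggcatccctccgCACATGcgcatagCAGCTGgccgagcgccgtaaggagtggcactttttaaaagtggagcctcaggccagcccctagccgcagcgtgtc
Eng: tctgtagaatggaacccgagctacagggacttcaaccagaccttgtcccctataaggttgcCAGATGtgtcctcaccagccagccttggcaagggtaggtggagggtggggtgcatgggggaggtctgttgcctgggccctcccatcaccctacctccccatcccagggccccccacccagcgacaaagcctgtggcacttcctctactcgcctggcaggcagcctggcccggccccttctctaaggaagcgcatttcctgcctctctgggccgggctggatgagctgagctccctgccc
These lie at chr2:155750967-155751266 (plus strand), chr15:9529827-9530126 (minus strand), chr6:125494711-125495010 (minus strand) and chr2:32646345-32646644 (plus strand). The starts of RefSeq and GENCODE need not be the same. In GENCODE Il7r starts at 9530176 on the minus strand, so its window lies wholly within that gene, and Procr starts at 155751117. The E-box was found 1 time in Procr, 3 times each in Il7r and Cd9, and 1 time in Eng, and 72.3% of the 32851 promoters in the table hold it. It was also present in Slamf1, Cd48 and Cd27, and no match lay in the windows of Cd34 and Fgd5. The PU.1 core GAGGAA was found in Eng and Fgd5 (28.3% of all promoters), the RUNX motif TGTGGT in Il7r and Cd48 (16.8%), and the AP-1 motif TGANTCA in Procr alone (7.81%), each on either strand. The GATA motif AGATAA matched none of the 9 (11.2% of all promoters). Among the 9, the RUNX match of Cd48 was the 1 match that overlapped an E-box. Base composition differed widely among the genes that rose, with 18 CG pairs in Cd9, 13 in Procr, 6 in Eng and 1 in Il7r, against a median of 7 over all promoters. Fgd5 had 37.

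Slamf1 and Cd48, the pair read together when stem cells are sorted, showed no difference that passed the test. Slamf1 (ENSMUSG00000015316.11; chromosome 1, 171767127 to 171801184, plus strand) had rlog values of 6.02, 5.86 and 6.37 in WT against 6.20, 6.24 and 5.89 in DM. The groups overlapped fully, and the change was 0.03 (SE 0.133, 95% interval -0.27 to 0.33, limma adjusted p 0.901). Its sign turned with the processing, since it was -0.00 after centring each library on its median and between -0.08 and 0.17 over the libraries left out. Cd48 (ENSMUSG00000015355.13; chromosome 1, 171682009 to 171705258, plus strand) had values of 10.13, 10.19 and 9.90 in WT against 10.35, 10.27 and 10.13 in DM. Its means were 10.07 ± 0.15 (SD, n = 3) and 10.25 ± 0.112, a change of 0.17 (SE 0.0911, 95% interval -0.03 to 0.38, adjusted p 0.233). DM replicate 3 lay among the WT libraries. Within each library the level of Slamf1 minus that of Cd48 was -4.11, -4.33 and -3.53 in WT against -4.14, -4.03 and -4.23 in DM, a difference between groups of -0.14 (two-sided exact permutation p 0.8, where 0.1 is the smallest that 3 against 3 allows). Without WT replicate 3 it was 0.08.

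Other receptors of the same gene cluster did change. Slamf7, whose nearest end lies 29 kb from Cd48, had values of 10.20, 10.68 and 9.96 in WT against 11.33, 11.29 and 11.20 in DM. Its change was 0.99 (SE 0.149, limma adjusted p 0.00428). Ly9, beyond Slamf7, went from 9.90 ± 0.301 (SD, n = 3) to 10.75 ± 0.155, a change of 0.85 (adjusted p 0.00586). Cd84, which follows Slamf1 after 38.5 kb, went from 12.50 ± 0.244 to 13.10 ± 0.108, a change of 0.60 (adjusted p 0.0108). These genes encode self-binding receptors of macrophages and lymphocytes, and the 3 kept their calls in all 13 alternatives. Slamf9, further along the chromosome, changed by 0.44 (adjusted p 0.0484) but lost the call in 10 of 13 alternatives, with values from 0.30 to 0.56 over the libraries left out, where only the fit without WT replicate 2 kept it. Cd244a, the receptor for CD48, changed by 0.21 (95% interval 0.01 to 0.41, adjusted p 0.149). It overlaps Ly9 on the opposite strand, and whether counting used strand is not given in the sources used here. Of the 13 tested genes of the SLAM family and its signalling partners, Slamf1 and Cd48 not counted, 5 were called and all 5 were higher in DM, with a median of 0.21, and 3 were called without WT replicate 1, WT replicate 3, DM replicate 2 or DM replicate 3.

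**Figure D3:**
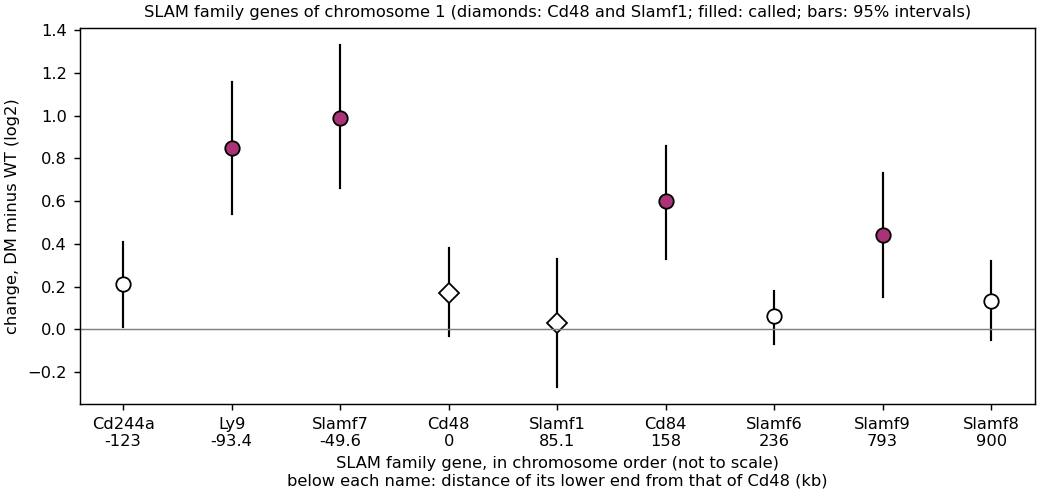
Change of each SLAM family gene (DM minus WT, log2) with its 95% limma interval, in the order of the genes on chromosome 1. Slamf7 at 0.99, Ly9 at 0.85 and Cd84 at 0.60 stand on both sides of Cd48 and Slamf1, shown as diamonds at 0.17 and 0.03.

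Cd34 (ENSMUSG00000016494.9; chromosome 1, 194938819 to 194961279, plus strand), a sialomucin of progenitors, was highly expressed, and its difference between the groups did not pass the test. Its rlog values were 12.56, 12.18 and 12.28 in WT against 12.64, 12.02 and 12.32 in DM. Replicate 1 was the highest and replicate 2 the lowest in both groups, and this spread was larger than the difference of the means, 12.34 ± 0.194 (SD, n = 3) and 12.33 ± 0.31. The change was -0.01 (SE 0.149, 95% interval -0.34 to 0.32, limma adjusted p 0.966), and it was 0.10 without WT replicate 1 and 0.14 without DM replicate 2. Its relative Podxl changed by 0.31 (adjusted p 0.326). Of the 5 genes listed for its family and partners 1 was called, the adaptor Crk (0.33, adjusted p 0.02), which lost the call without WT replicate 1 (0.32, adjusted p 0.0814), DM replicate 2 (0.31, adjusted p 0.0835) or DM replicate 3 (0.34, adjusted p 0.0627).

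Fgd5 and Cd27 were near the lower limit of the tested range, where the median gene differed by 0.188 between its highest and lowest library. Fgd5 (ENSMUSG00000034037.14; chromosome 6, 91978878 to 92076004, plus strand) had rlog values of 4.08, 3.97 and 4.29 in WT against 3.87, 3.97 and 3.90 in DM. The groups did not overlap, but by a margin of only 0.000233 between WT replicate 2 and DM replicate 2. The change was -0.20 (SE 0.0759, 95% interval -0.37 to -0.03, limma adjusted p 0.117), and without WT replicate 2 it was -0.27 and passed the test (adjusted p 0.0301). Of 8 genes of the FGD family and its GTPase, 1 was called, Fgd6 (0.53, adjusted p 0.0149), in the direction opposite to Fgd5. Fgd6 lost the call without WT replicate 1 (0.45, adjusted p 0.0601), DM replicate 2 (0.50, adjusted p 0.0578) or DM replicate 3 (0.49, adjusted p 0.0605).

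Cd27 (ENSMUSG00000030336.14; chromosome 6, 125232622 to 125237010, minus strand), a TNF receptor family member, had rlog values of 3.95, 3.52 and 3.63 in WT against 3.51, 3.54 and 3.52 in DM. WT replicate 1 stood above the other 5 libraries. The change was -0.18 (SE 0.0912, 95% interval -0.38 to 0.03, limma adjusted p 0.226), and without WT replicate 1 it was -0.05. The gene lies within Vamp1, which is on the opposite strand and had a mean of 9.20 in WT and 9.12 in DM, so that reads of Cd27 may not be told apart from those of Vamp1 if strand was not used. Its ligand gene Cd70 had a mean under 3. In the CD27 list 2 of 10 tested genes were called, both higher: Tnfrsf1b, the second receptor for TNF (0.72, adjusted p 0.00648), in all 13 alternatives, and Traf5, an adaptor of CD27 (0.26, adjusted p 0.0409). Traf5 lost the call in 9 of 13, including the omission of any library, with changes from 0.21 to 0.30.

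**Figure D4:**
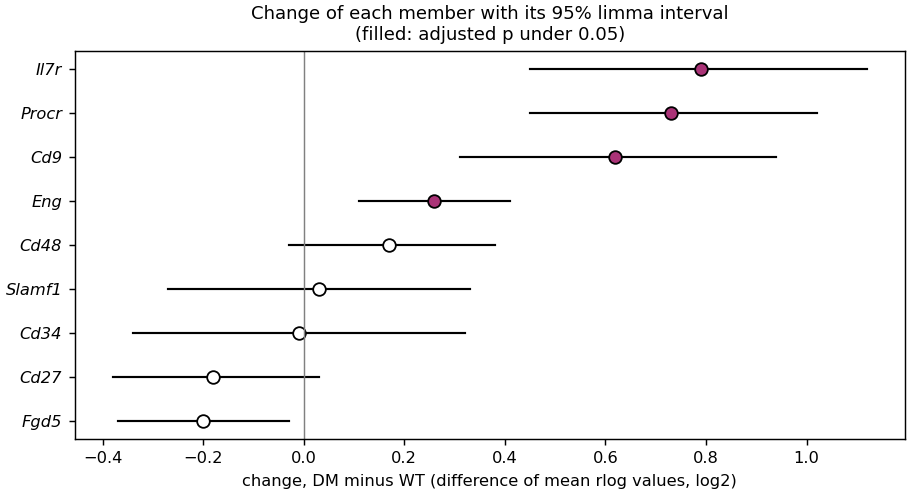
Change of each of the 9 genes (DM minus WT, difference of mean rlog values, log2) with its 95% limma interval, filled where the adjusted p was under 0.05. The intervals of Il7r, Procr, Cd9 and Eng lie above 0, that of Fgd5 lies below 0 without passing the adjusted threshold, and those of Cd48, Slamf1, Cd34 and Cd27 include 0.

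Levels of the 9 genes can be set side by side only per length, here as the rlog value minus the log2 of the exonic length in kilobases. On that scale Cd9 was highest with a mean of 13.94 over the 6 libraries, followed by Cd48 at 9.91, Il7r at 9.73 and Cd34 at 9.47. The ranges of Cd48 and Il7r met, as did those of Il7r and Cd34, so that this middle group is not ordered beyond its spread. Procr at 8.19, Eng at 6.73, Slamf1 at 3.48, Cd27 at 2.39 and Fgd5 at 1.36 followed, each with a range apart from the next.

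Beyond the 9 genes, 28 other surface genes of stem and progenitor cells were listed, of which 26 were tested. Of these 7 were called, 3 higher and 4 lower in DM, with a median of -0.04. Thy1, a surface antigen of early progenitors and T cells, fell most, from 9.86, 10.36 and 9.76 in WT to 8.59, 8.83 and 8.73 in DM (-1.27, limma adjusted p 0.00102). The adhesion receptor gene Vcam1 (-0.74, adjusted p 0.00423) and Cxcr4, the chemokine receptor that holds progenitors in the marrow (-0.73, adjusted p 0.00698), also fell, while Alcam, an adhesion receptor, rose (0.74, adjusted p 0.00828). These 4 kept their calls in all 13 alternatives. Kit (0.20, adjusted p 0.368), Ly6a, the stem cell antigen Sca-1 (0.14, adjusted p 0.525) and Ptprc (0.22, adjusted p 0.133) did not pass the test and were named after their values were seen.

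For each called gene the 3 genes most like it were sought among 11970 genes with a mean of at least 6, by the root mean square difference of centred rlog values over the 6 libraries. Procr was matched by Ass1 (difference 0.033), Cxcl16 (0.0401) and Ccl9 (0.0505), against a root mean square of 0.407 for Procr itself. Il7r was matched by Mmp19 (0.021), the pseudogene Gm15931 (0.0243) and Ms4a6d (0.0361), and Cd9 by Lamp1 (0.0387), App (0.0391) and Aplp2 (0.0406). For Eng these were Tm9sf1 (0.0136), Rab8b (0.0177) and Rel (0.0179). With 6 libraries in 2 groups, many genes that differ between the groups can come this close.

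The genes next to the 4 called genes on the chromosome were looked at as well. Vwf, which encodes von Willebrand factor and begins 52 kb from Cd9, changed by 0.54 (limma adjusted p 0.00667). The other tested coding neighbours did not pass the test: Mmp24 beside Procr (-0.07, adjusted p 0.464), Spef2 beside Il7r (0.23, adjusted p 0.227), Plekhg6 on the far side of Cd9 (-0.08, adjusted p 0.484), and Ak1 (0.14, adjusted p 0.234) and Cdk9 (0.18, adjusted p 0.113) beside Eng. Fpgs overlaps the end of Eng on the opposite strand and changed by -0.09 (adjusted p 0.437), and Gm26728 overlaps the start of Cd9 on the opposite strand and changed by 0.28 (adjusted p 0.0719).

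Marker lists of other cell types were read beside the 4 rises. Of 15 tested monocyte and macrophage markers 11 were called, all 11 higher in DM, with a median of 0.63, and the most abundant were Lyz2 (0.86, limma adjusted p 0.0176, with the call lost in 3 of 13 alternatives), Gpnmb (0.96, adjusted p 0.012) and Ctss (0.96, adjusted p 0.0115). Their summed level (log2 of the sum of values taken off the log scale) was 18.48, 18.96 and 18.27 in WT against 19.28, 19.65 and 19.37 in DM. Without DM replicate 2, 7 of the 15 were called. This sum was highest in replicate 2 and lowest in replicate 3 of WT. Procr, Il7r and Cd9 had the same order within WT, as did Cd48, Cd84, Ly9, Slamf7 and Ptgfrn. Eng was highest in replicate 2 of WT and lowest in replicate 1, an order other than that of the sum. In DM the sum, Il7r and Cd9 were highest in replicate 2, and Procr and Eng in replicate 1. Such orders of 3 libraries do not tell which cells carried these transcripts. None of the 16 listed genes was at 0, although the complement gene C1qa of tissue macrophages had a mean under 3 and C1qb one of 3.07 in WT. The part of these cells in the rises was not tested.

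Dendritic cell markers had 5 of 7 called, 4 higher and 1 lower, but 2 without WT replicate 1, DM replicate 2 or DM replicate 3 and 3 without WT replicate 3 or DM replicate 1, with sums of 12.20 to 12.95 in WT and 13.26 to 13.48 in DM. Of 16 neutrophil markers, led in level by S100a9, S100a8 and Ngp, 12 were called, all 12 lower, and their sum ran from 18.63 to 19.07 in WT and from 17.33 to 18.15 in DM. Endothelial markers, which matter for Procr and Eng, had 3 of 12 called, 1 higher and 2 lower. Their sum, 13.73 to 13.77 in WT and 13.94 to 14.10 in DM, rested on Vwf and Pecam1, which blood cells also express. The median change of the list was -0.09. Flt1, next in level, fell from a mean of 8.56 in WT to 7.97 in DM (-0.59, limma adjusted p 0.0167). It lost the call without WT replicate 1 (-0.49, adjusted p 0.062). Kdr had means of 6.98 in WT and 7.10 in DM, and Cdh5, a defining gene of endothelium, 4.17 and 4.02. Megakaryocyte markers, led by Itga2b, had 2 of 12 called, both higher, with sums of 14.26 to 14.52 and 14.53 to 14.91, and 1 called without DM replicate 2. Mast cell and basophil markers, led by Cpa3, Tpsb2 and Cma1, had 4 of 14 called, 3 higher and 1 lower (2 called without WT replicate 2 or DM replicate 2), and their sum was 19.33, 19.00 and 18.99 in WT against 19.48, 19.01 and 19.12 in DM. Replicate 1 had the highest mast cell sum in both groups, as it had the highest Cd34. Erythroid markers had 0 of 12 called by limma, and 0 at an unadjusted p under 0.05 (1 called without WT replicate 2), with sums of 12.81 to 13.13 in WT and 12.55 to 12.95 in DM. Of 17 transcription regulators of stem cells 3 were called, 1 higher and 2 lower, with a median of -0.04, and 1 was called without DM replicate 2. The part of each of these lists in the values of the 9 genes was not tested.

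**Figure D5:**
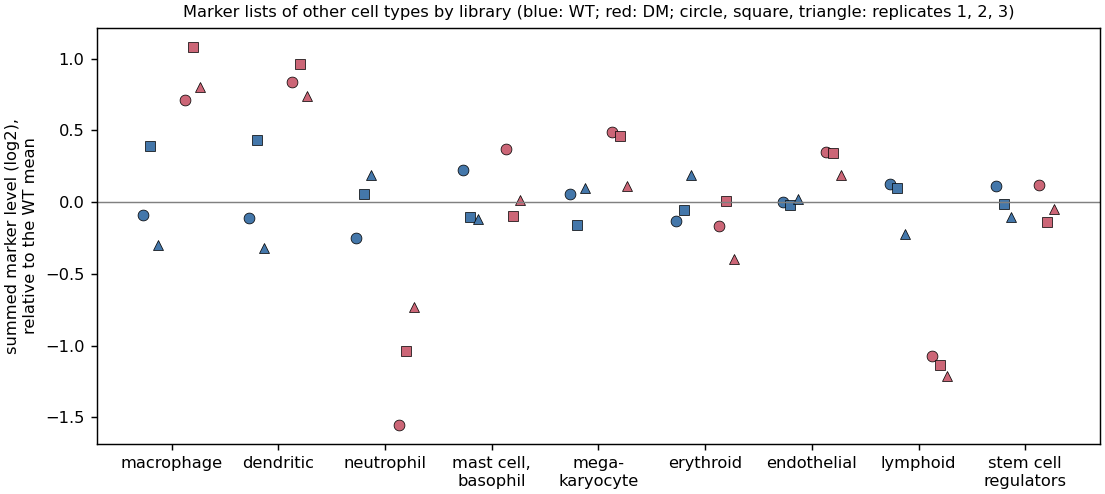
Summed level of each marker list (log2) in each library, relative to the mean of the 3 WT libraries, with WT in blue, DM in red and a marker shape for each replicate. The macrophage, dendritic cell, endothelial and megakaryocyte sums are higher in all DM libraries, the last by a narrow margin (14.52 at most in WT, 14.53 at least in DM). In the endothelial list Vwf rose by 0.54, while the median change of its genes was -0.09. The neutrophil and lymphoid sums are lower, and the mast cell, erythroid and stem cell regulator sums overlap between the groups.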

How the data were processed

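The 9 genes and all gene lists were chosen with earlier results of these data known. Per the submitters' processing notes, the authors used cutadapt 2.6, STAR 2.7.3, DESeq2 1.30.0 and mm10, with no roles given; the counting tool and the use of strand are not given in the sources used here. The values the authors deposited are log2 values, read as regularized log (rlog) values of DESeq2 from the table's name and from their range, -1.97 to 21.88. The table's 142699 lines repeat each gene and were merged to 55487 genes; 97.9% of gene identifiers matched GENCODE M21. No pair of libraries was identical.

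The values were tested as deposited with limma 3.58.1 (R 4.3.3), by lmFit and then eBayes with its trend option, without covariates, over 18766 genes whose mean was at least 3. P-values are two-sided and adjusted by Benjamini-Hochberg over all tested genes, with a threshold of 0.05. In simulated data of 18766 genes for this comparison, 108 of 108 genes changed by 1 and 88 of 92 changed by 0.5 (log2) were called, with 15 false calls. Only 200 genes were changed there, and the noise was normal and independent between genes. The simulation therefore checks that the fit runs as meant and does not give its power or false calls in the real libraries. Named were the 9 genes, up to 4 called genes per pathway list with the largest changes, the most abundant marker genes, and the 3 genes most like each called gene; others were named after their values were seen. The 13 alternatives were no filter, a mean of at least 5, no trend, robust eBayes, quantile normalization, centring on the median, a replicate block and each library left out. No table of proteins was used here.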

Additional observations from a re-analysis of the deposited data

How the results depend on the processing

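Procr and Il7r kept their calls in all 13 alternatives, Cd9 in 10 and Eng in 7. Changes over the libraries left out ran from 0.61 to 0.90 for Procr, 0.63 to 0.97 for Il7r, 0.50 to 0.75 for Cd9, 0.23 to 0.30 for Eng, 0.09 to 0.23 for Cd48, -0.08 to 0.17 for Slamf1, -0.17 to 0.14 for Cd34, -0.27 to -0.05 for Cd27 and -0.27 to -0.11 for Fgd5. Eng lost its call without the filter (0.26, limma adjusted p 0.0808), where more genes were tested. Slamf1 turned to -0.00 after centring on the median, to -0.00, -0.08, -0.02 and -0.03 without WT replicate 1, WT replicate 2, DM replicate 1 and DM replicate 2, and Cd34 to 0.10 without WT replicate 1 and 0.14 without DM replicate 2. Slamf1 minus Cd48 ran from -0.31 to 0.08, the latter without WT replicate 3. With single libraries left out, from 2 to 5 of the 9 genes were called (2 without WT replicate 1, WT replicate 3 or DM replicate 2), and from 1119 to 3475 of all genes (1185, 1119 and 1537 on omission of WT replicate 1, DM replicate 2 or DM replicate 3). Called genes per list then ran from 5 to 8 for surface genes, 1 to 2 for the protein C pathway, 3 to 5 for the SLAM family, 0 to 2 for the CD34 and FGD lists, 1 to 2 for CD27, 5 to 10 for endoglin, 1 to 4 for IL-7 and 2 to 13 for tetraspanins. Without the filter 1 gene was called in each of the protein C, CD27 and IL-7 lists and 6 among tetraspanins. After quantile normalization these counts were 1 for protein C, 3 for SLAM, 2 for FGD, 1 for CD27 and 2 for IL-7. Centring gave 1 for protein C and 1 for CD27, and 2 FGD genes were called without the trend. The cause of these shifts was not tested. Deviations from the group means correlated at 0.491, 0.116 and 0.0412 between WT and DM libraries of the same replicate number, 1 to 3. Between WT and DM libraries of different numbers the correlations ran from -0.336 to 0.124. These values do not settle whether the numbers pair the libraries. With the replicate number as a block, 3742 genes were called against 2611, and 3 against 1 in the FGD list, and the same 4 marker genes were called. Shrinkage of rlog values limits what can be seen for Fgd5 and Cd27, and depth is unknown.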
